A study of Homo sapiens with 4 samples.

Results

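The expression of 10 keratin genes was followed in Ishikawa cells, an established line of human endometrial adenocarcinoma cells. The members were the rows named KRT5, KRT7, KRT8, KRT13, KRT17, KRT18, KRT19, KRT23, KRT80 and KRT81, 10 of 26364 gene symbols in the deposited count table. All cells carried the Y537S change in ESR1, the gene for estrogen receptor alpha, as 2 mutant clones (Clone 1 and Clone 2 in the labels). Cells were kept for at least 5 days in hormone-deprived medium and then treated for 8 h with 10 nM estradiol (E2) or with 0.1% DMSO as vehicle. The study asked how the mutant receptor affects gene expression. Poly(A)-selected RNA was sequenced in 4 libraries, 2 with DMSO and 2 with E2. Each clone is a single derived line, and no unmutated cells are used here, so no value below measures the effect of the mutation itself.

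Keratins build the intermediate filaments of epithelial cells. A type I and a type II keratin pair to form a filament, and each kind of epithelium makes its own pairs. KRT8 (type II) and KRT18 (type I) are the pair of simple, single-layered epithelium such as that of the endometrium, often with KRT7 and KRT19. KRT5 is known from the basal layer of stratified epithelium, where its usual partner is KRT14, and KRT17 from basal and wounded epithelium. KRT13 is known from stratified mucosa and KRT81 from hair. The 10 genes are therefore not all keratins of simple epithelium, and they are called keratin genes here. In the RefSeq gene order, KRT5, KRT7, KRT8, KRT18, KRT80 and KRT81 lie on chromosome 12, with KRT8 next to KRT18 and KRT5 next to KRT6A. KRT13, KRT17, KRT19 and KRT23 lie on chromosome 17.

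The library columns are named by treatment and by a tag, A4 or B212. No label gives these tags, so they could not be linked to clone numbers, and libraries are named here by tag and treatment. The libraries held 71575816 to 85222856 counts. Nothing in the labels says that the libraries were more than 1 culture of each clone and treatment, and p-values rest on the spread between these 4 libraries. In a fit that holds both tag and treatment, they rest only on the spread left after both are taken out. That spread does not measure how other cultures or clones would vary. EPCAM, an adhesion protein of epithelial cells, had 37012 to 49113 counts per library. Of 6 squamous markers, IVL, DSG3 and SPRR1B were at 0 in all 4 libraries, KRT14 had at most 1 count, and KRT5 and TP63 were expressed. Markers of other cell types were low, apart from the collagen gene COL1A1. PECAM1 (endothelium) and CD3E (T cells) were at 0, DCN had at most 1 count, and the summed level of 6 stromal markers was 35.3 to 130.8 CPM. Here CPM are counts scaled to a common library size, with trimmed mean of M values (TMM) factors.

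RefSeq promoter windows (assembly GRCh38.p14) matched 2 of the 10 members, KRT5 and KRT8. They are shown because KRT5 was lower in B212 than in A4 and also lower with E2, and KRT8 was the most abundant member. The submitters' processing notes name build hg19, so these coordinates belong to the windows and not to the counts. Each window holds the 250 bases before an annotated start, on the minus strand, with KRT5 at chr12:52520395-52520644 and KRT8 at chr12:52926470-52926719. KRT8 has several annotated starts, and this window belongs to 1 of them. Capitals mark GGTCA or its reverse complement, an arm of the estrogen response element, and ATAAAA, both picked after the windows were read.
KRT5: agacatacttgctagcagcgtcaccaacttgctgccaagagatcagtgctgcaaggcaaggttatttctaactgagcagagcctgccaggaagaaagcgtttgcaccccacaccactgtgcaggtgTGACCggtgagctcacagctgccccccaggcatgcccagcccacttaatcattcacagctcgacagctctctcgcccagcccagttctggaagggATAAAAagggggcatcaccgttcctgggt
KRT8: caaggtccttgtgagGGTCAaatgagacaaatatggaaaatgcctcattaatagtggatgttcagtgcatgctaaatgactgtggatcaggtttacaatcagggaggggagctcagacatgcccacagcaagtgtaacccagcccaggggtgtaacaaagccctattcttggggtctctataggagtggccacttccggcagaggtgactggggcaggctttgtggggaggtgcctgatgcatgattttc
On either strand, KRT5 had 1 arm starting 124 bases before the start and 1 ATAAAA starting 29 bases before it. KRT8 had 1 arm starting 235 bases before the start and no ATAAAA. Among 35116 RefSeq windows of the same length, 32.6% held GGTCA and 14.8% held ATAAAA. The full element GGTCANNNTGACC was in 0.0399% of windows, and in neither of these. TGANTCA (the AP-1 site) and GGGCGG (a GC box), in 6.57% and 42.6% of windows, were also in neither. These matches are letters in a window, not sites shown to be bound.

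Per length, KRT8 and KRT18 stood well above the other members. Levels between genes are given as CPM per kb of the longest coding transcript of each gene (GENCODE 29). KRT8 had 276.5 (A4 DMSO), 260.0 (A4 E2), 340.6 (B212 DMSO) and 304.3 (B212 E2) CPM per kb. KRT18 had 271.0, 231.2, 297.0 and 239.8 in the same order. Their ranges overlapped, and KRT8 was the higher of the pair in all 4 libraries. KRT18 shared 52.1% of the 32-base stretches of its transcript with other genes and KRT8 10.1%. The part of this in their order was not tested. KRT19 had 53.5 to 112.0 CPM per kb, KRT80 23.2 to 56.3 and KRT5 3.93 to 25.5. KRT19 was above KRT80 in every library although their ranges met, and KRT80 was above KRT5 in every library. KRT23 had 3.70 to 14.5, KRT17 1.93 to 13.97 and KRT7 4.12 to 5.20 CPM per kb, and the ranges of these 3 genes and KRT5 overlapped. Their order differed between the tags. In A4, KRT5 (25.5 and 20.9 CPM per kb) was above the other 3, and KRT7 was above KRT17. In B212, KRT5 (5.67 and 3.93) was below KRT23 and KRT17 in both libraries and below KRT7 with E2, and KRT7 was below KRT17. KRT13 and KRT81 were near the limit of detection, with 6 to 15 and 4 to 17 counts per library.

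**Figure D1:**
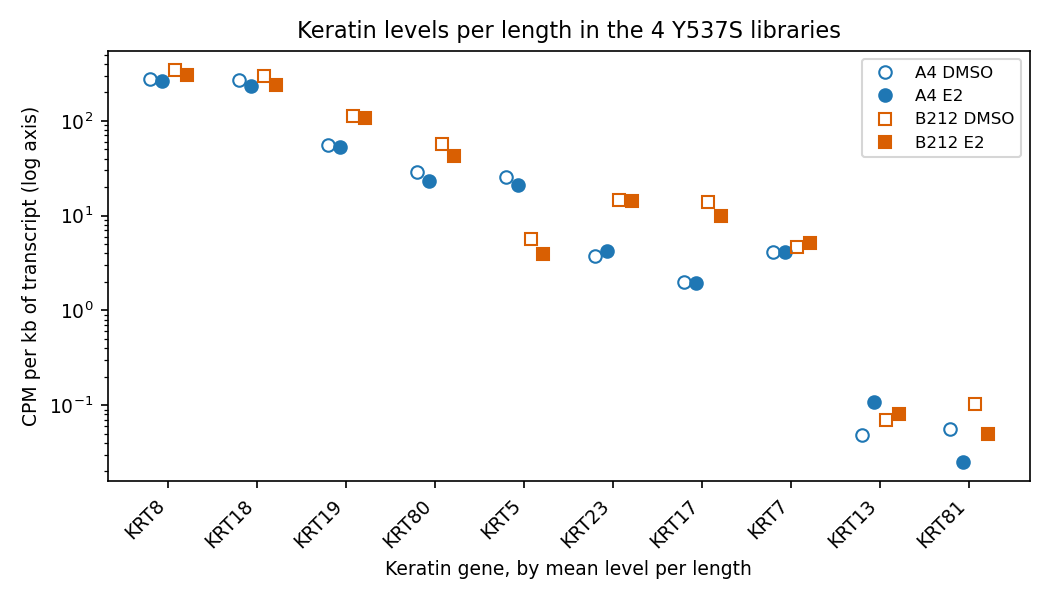
Level of each keratin gene in CPM per kb of transcript (log axis), with 1 point per library; open symbols are DMSO, filled symbols E2, circles A4 and squares B212. KRT8 and KRT18 lie between 231.2 and 340.6. The A4 and B212 libraries do not overlap for KRT5, KRT7, KRT8, KRT17, KRT19, KRT23 and KRT80.

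Together the 10 members took 0.139% (A4 DMSO), 0.122% (A4 E2), 0.182% (B212 DMSO) and 0.157% (B212 E2) of all counts. The share was lower with E2 within each tag, and both B212 libraries were above both A4 libraries. The table held 56 keratin gene symbols, 26 numbered as type II and 30 as type I, the pseudogene KRT42P among the latter. The 10 members made up 95.7% to 98.1% of their summed counts. KRT8 and KRT18 alone made up 77.8% and 77.7% in A4 and 73.3% and 73.2% in B212. Type II genes took 59.0% to 60.7% of keratin counts, with little spread between libraries.

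Within the KRT8 and KRT18 pair, KRT8 took 59.5% of the counts in A4 DMSO (95% exact binomial interval 59.1% to 59.8%) and 61.8% in A4 E2 (61.4% to 62.1%). In B212 it took 62.2% with DMSO (61.9% to 62.5%) and 64.6% with E2 (64.3% to 64.9%). The KRT8 share was thus higher with E2 in both tags, and higher in B212 than in A4 under both treatments. Each combination had 1 library, so the difference was not tested. These intervals, like all counting intervals here, cover counting error only. Per base of transcript the share was 50.5%, 52.9%, 53.4% and 55.9% in the same order of libraries. Whether reads of shared sequence were lost from KRT18 more than from KRT8 was not tested.

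**Figure D2:**
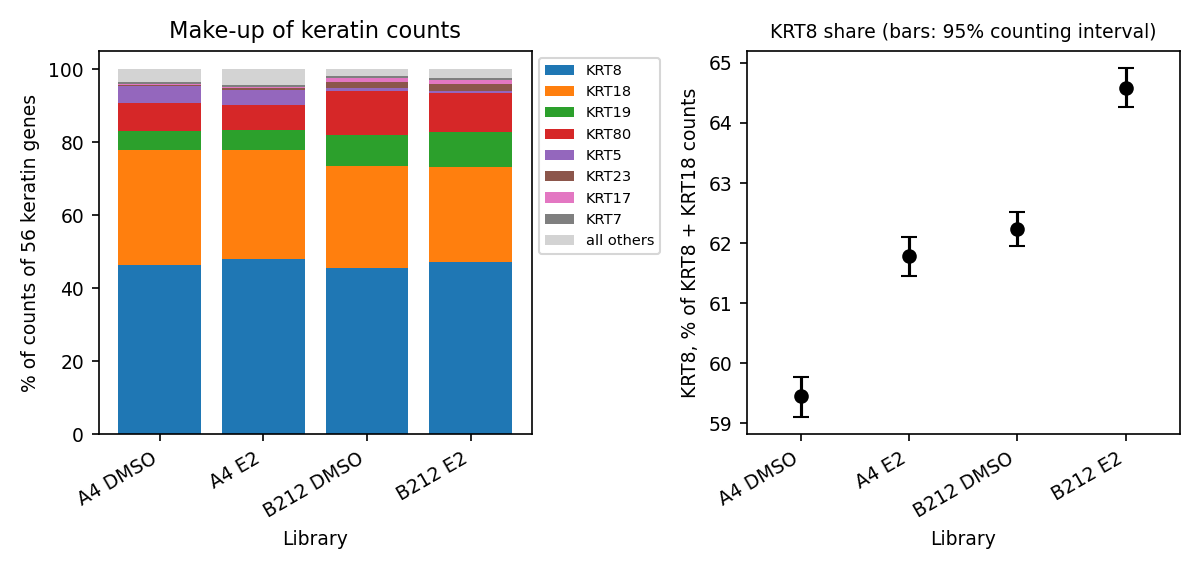
Left, each gene's percentage of the summed counts of 56 keratin gene symbols in each library. Right, KRT8 as a percentage of KRT8 and KRT18 counts with 95% exact binomial counting intervals. KRT8 and KRT18 fill 73.2% to 77.8% of the columns, and the KRT8 share runs from 59.5% to 64.6%.

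The comparison of E2 with DMSO asked which keratin genes responded to ligand in cells with the mutant receptor. With the tag of the cells accounted for as a block, KRT5, KRT18 and KRT80 fell with E2, each by less than 0.40 on the log2 scale. Without the block no member was called, in a fit whose spread within each treatment holds the difference between the tags. Of the 10 members, 9 passed the filter on low counts, and KRT81 did not. The quasi-likelihood test of edgeR, fitted with no block, called 0 of these 9 and 0% of 15599 genes. None of the 9 had an unadjusted p under 0.05 in that fit, as 150 of all genes did, and DESeq2 called 1 gene, which was no member. With the block, 3 of 9 were called, all lower, against 9.56% of all tested genes in either direction, 3.44% lower and 6.13% higher. That is 956 genes higher and 536 lower, and with library size only as the scaling 911 higher and 775 lower. The median log2 fold change was -0.13 over the 9 members and -0.0081 over all tested genes. In bulk RNA, fewer cells of a kind and less RNA per cell cannot be told apart.

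KRT18, the type I partner of KRT8, had 459.6 CPM (A4) and 503.7 CPM (B212) with DMSO and 392.1 and 406.7 CPM with E2. Both E2 libraries lay below both DMSO libraries. The means were 481.6 ± 31.2 CPM with DMSO and 399.4 ± 10.3 CPM with E2 (SD, n = 2). The fit with no block gave a log2 fold change of -0.27 ± 0.12 (SE) and an edgeR adjusted p of 0.9999. The fit with the block gave -0.27 ± 0.071 (SE) and an edgeR adjusted p of 0.0230. Among the tested members, KRT18 and KRT13 were the 2 whose treatment groups did not overlap, as was so for 25.0% of all tested genes.

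KRT80, a type II keratin whose gene lies beside KRT7, had 111.5 CPM (A4) and 219.3 CPM (B212) with DMSO and 90.2 and 166.7 CPM with E2. The level was lower with E2 in both tags, but the B212 E2 library lay above the A4 DMSO library. The within-tag log2 differences were -0.31 and -0.40. With the block KRT80 fell by 0.35 ± 0.069 on the log2 scale (SE), at an edgeR adjusted p of 0.00474. With no block the estimate was -0.36 ± 0.46 (SE), at an edgeR adjusted p of 0.9999.

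KRT5, the basal type II keratin, had 64.5 CPM (A4) and 14.4 CPM (B212) with DMSO and 53.0 and 9.94 CPM with E2. The tags were further apart than the treatments, and E2 was lower in each. Within the tags the log2 differences were -0.28 (A4) and -0.53 (B212). With the block KRT5 fell by 0.39 ± 0.085 on the log2 scale (SE), at an edgeR adjusted p of 0.00806. With no block the estimate was -0.32 ± 1.06 (SE), at an edgeR adjusted p of 0.9999.

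KRT17 was not called. Its level was 3.30 CPM with DMSO and 3.19 CPM with E2 in A4, and 23.1 and 16.5 CPM in B212. The log2 difference was -0.049 in A4, with a 95% counting interval of -0.31 to 0.21, and -0.49 in B212, with an interval of -0.59 to -0.38. The interval included 0 in A4 and not in B212, and whether the tags differed was not tested, with 1 library per combination. The estimate with the block was -0.32 ± 0.12 (SE), at an edgeR adjusted p of 0.0843. Over the alternatives with a block, the adjusted p of KRT17 ran from 0.0322 in edgeR with no filter on low counts, where it was called, to 0.122 in edgeR with DESeq2 size factors.

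KRT8, KRT19, KRT7 and KRT23 did not pass the threshold either. KRT8 had 673.7 (A4) and 830.1 (B212) CPM with DMSO and 633.7 and 741.6 CPM with E2, and its log2 fold change with the block was -0.13 ± 0.073 (SE). KRT19, a type I keratin of simple epithelium, had 5654 and 13288 counts with DMSO and 6104 and 10992 with E2. Its log2 difference was -0.053 in A4 and -0.054 in B212. KRT7, a type II keratin of glandular epithelium, had 7.25 and 8.26 CPM with DMSO and 7.23 and 9.11 CPM with E2. KRT23, a type I keratin, had 7.36 and 28.8 CPM with DMSO and 8.48 and 28.0 CPM with E2. Log2 fold changes with the block were -0.054 ± 0.068 (KRT19), 0.070 ± 0.11 (KRT7) and 0.068 ± 0.094 (KRT23), given with their SE. For KRT8, KRT19, KRT7 and KRT23 the edgeR adjusted p was 0.293 to 0.739 with the block.

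KRT13 and KRT81 had too few counts for a response to be detectable. KRT13 had 6 (A4) and 10 (B212) counts with DMSO and 15 and 10 with E2. KRT81 had 8 and 17 counts with DMSO and 4 and 7 with E2. In all cases the 95% counting interval of the within-tag difference included 0, as for KRT13 in A4 (-0.29 to 2.81 on the log2 scale). Over the 9 tested members, the log2 difference was below 0 in both tags for 6, as it was for 36.8% of all tested genes, and it had the same sign in both tags for 7, against 70.1%.

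**Figure D3:**
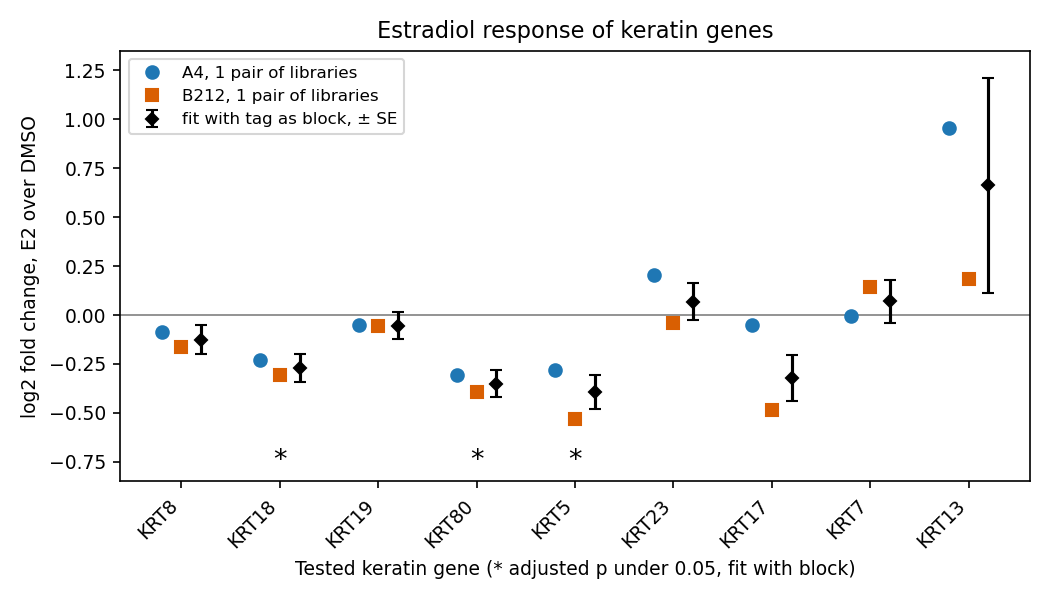
Log2 fold change of each tested keratin gene for E2 over DMSO within A4 (circles) and within B212 (squares), and as fitted with the tag blocked (diamonds, bars are SE). Stars mark KRT18, KRT80 and KRT5, the 3 genes called with the block; no gene was called without it.

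The calls of KRT5, KRT18 and KRT80 with the block were also made by DESeq2, by limma-voom, with DESeq2 size factors in edgeR, with library size only, with no filter, and after each library was corrected for a trend with the length and GC content of transcripts. Under these alternatives the log2 fold change ran from -0.42 to -0.34 for KRT5, from -0.30 to -0.27 for KRT18 and from -0.37 to -0.25 for KRT80. The largest adjusted p of KRT80, 0.0480 by edgeR, came with this correction, and that of KRT18, 0.0465 by edgeR, with DESeq2 size factors.

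The comparison of B212 with A4, with treatment as a covariate, asked how far keratin expression differed between the cells of the tags. It compares these cells only. Of the 9 tested members, 5 were higher in B212 (KRT8, KRT17, KRT19, KRT23 and KRT80) and 1 was lower (KRT5). Among all tested genes, 51.0% were called in this comparison, 25.2% higher and 25.8% lower, so a call alone says little about keratins. The split was 3927 higher and 4023 lower, and 4761 and 3176 with library size only as the scaling; the 6 members were called in the same direction under both. The A4 and B212 libraries did not overlap for 7 of 9 members and for 67.5% of all tested genes. The median log2 fold change was 0.26 over the members and 0.0042 over all tested genes.

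KRT17 had 242 and 262 counts in the A4 libraries (DMSO, E2) and 1969 and 1206 in the B212 libraries. The mean level was 3.25 ± 0.078 CPM in A4 and 19.8 ± 4.68 CPM in B212 (SD, n = 2), a ratio of 6.08. The fitted log2 difference, B212 over A4, was 2.58 ± 0.12 (SE) at an edgeR adjusted p of 3.93e-13. KRT23 had 539 and 696 counts in A4 and 2455 and 2053 in B212. Its mean level was 7.92 ± 0.80 CPM in A4 and 28.4 ± 0.54 CPM in B212, a ratio of 3.58, and its log2 fold change was 1.84 ± 0.096 (SE).

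KRT5 went the other way. It had 4722 and 4348 counts in A4 and 1226 and 729 in B212. The mean level was 58.7 ± 8.11 CPM in A4 and 12.2 ± 3.12 CPM in B212 (SD, n = 2), 4.83 times higher in A4. The fitted log2 difference was -2.29 ± 0.088 (SE) at an edgeR adjusted p of 2.4e-14. KRT6A, its neighbour in the gene order and a keratin of activated stratified epithelium, was lower in B212 as well. KRT6A had 1573 and 1293 counts in A4 and 47 and 47 in B212, a log2 fold change of -4.97 ± 0.16 (SE).

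KRT19 had 5654 and 6104 counts in A4 and 13288 and 10992 in B212, and its log2 fold change was 1.01 ± 0.069 (SE). The B212 excess was 1.01 under DMSO and 1.01 under E2, the closest match between treatments of any tested member. KRT80 had 8168 and 7399 counts in A4 and 18715 and 12222 in B212, and its log2 fold change was 0.93 ± 0.070 (SE). The pair of simple epithelium differed less. KRT8 was higher in B212 by 0.26 ± 0.073 on the log2 scale (SE), with an edgeR adjusted p of 0.00496. KRT18 was not called, at 0.093 ± 0.071 and an edgeR adjusted p of 0.294. KRT7 had a log2 fold change of 0.26 ± 0.11, with an edgeR adjusted p of 0.0530, and KRT13 one of -0.039 ± 0.55. Without the treatment term KRT8 was not called, with an adjusted p of 0.0927 by edgeR.

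The tag took 96.7% of the sum of squares of log2 CPM over the 4 libraries for KRT5, 98.2% for KRT17, 99.4% for KRT23 and 99.7% for KRT19. For KRT18 the tag took 10.4% and treatment 87.7%. KRT18 was thus the member with over 100 counts per library whose level followed treatment more than tag.

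**Figure D4:**
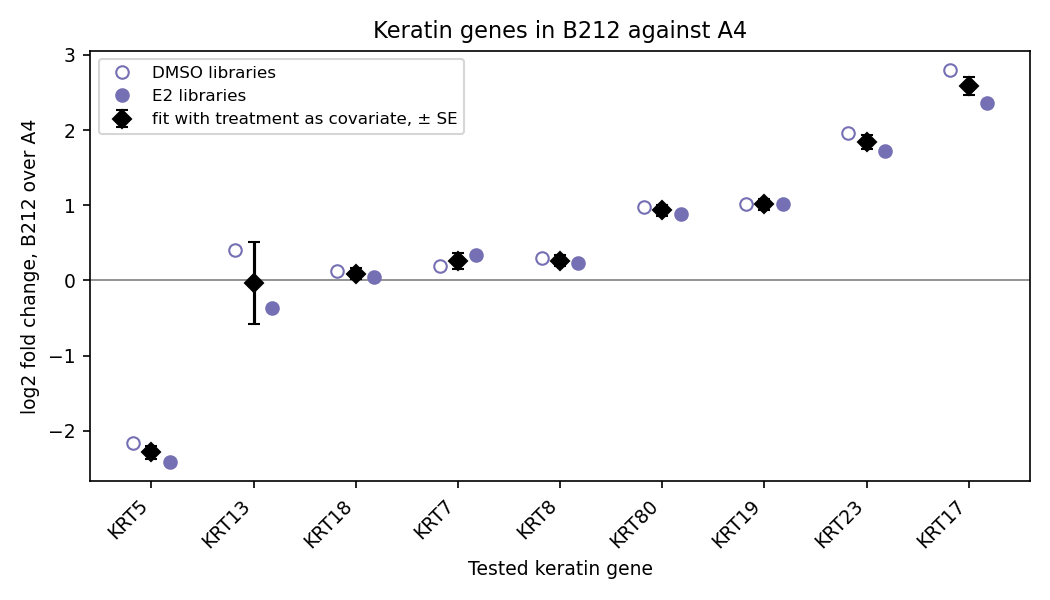
Log2 fold change of each tested keratin gene for B212 over A4 from the fit with treatment as a covariate (diamonds, bars are SE), within the DMSO libraries (open circles) and within the E2 libraries (filled circles). KRT5 is at -2.29 and KRT17 at 2.58, and for all but KRT13 both treatments give the same sign.

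Epithelial markers other than the keratins moved in both comparisons. Of the 7 tested markers of that list, which holds KRT8 and KRT18, 3 were lower with E2 with the block (KRT18, ESR1 and PAX8). In B212, 4 were higher (PAX8, CDH1, MUC1 and KRT8). Over all tested genes, 3.44% were called lower with E2 with the block and 25.2% higher in B212. ESR1, the mutated receptor gene, had 8049 (A4) and 9163 (B212) counts with DMSO and 7956 and 6342 with E2. Its log2 fold change for E2 with the block was -0.25 ± 0.070 (SE), and that of PAX8, a transcription factor of Müllerian epithelium, was -0.25 ± 0.072. Neither was called by DESeq2, with DESeq2 size factors in edgeR, or after the length and GC correction. Between the tags, PAX8 was higher in B212 by 0.61, CDH1 (E-cadherin) by 0.50 and MUC1 (a surface mucin) by 0.62 on the log2 scale, while EPCAM, at 0.12, was not called. The summed level of the 7 markers was 2376 (A4) and 2907 (B212) CPM with DMSO and 2226 and 2628 CPM with E2.

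Stromal markers moved with the tag as well. All 3 of the tag-called stromal genes, COL1A1, COL1A2 and COL3A1, were lower in B212, among 4 tested, as were 25.8% of all tested genes. The summed level of the 6 markers was 130.8 and 94.5 CPM in A4 and 43.3 and 35.3 CPM in B212. DCN was at 0 in 3 of the 4 libraries and LUM in both B212 libraries. COL1A1 was lower with E2 too, by a log2 fold change of -0.39 with the block. VIM, the intermediate filament gene of mesenchymal cells, had 30 and 19 counts in A4 and 0 and 1 in B212. VWF, the 1 tested endothelial marker of 3, was higher in B212 by 0.58 and lower with E2 by 0.49 on the log2 scale, while PECAM1 was at 0. The part of these genes in the keratin differences was not tested.

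Other keratin genes were few. Of 46 keratin gene symbols that are no members, 21 had no count in any library and 6 were tested. KRT10, the most abundant, is a type I keratin of differentiating epidermis. KRT10 had 28.7 (A4) and 33.0 (B212) CPM with DMSO and 40.6 and 37.1 CPM with E2. With the block it rose with E2 by a log2 fold change of 0.33 ± 0.087 (SE), with an edgeR adjusted p of 0.0209. That call was not made by DESeq2 or with DESeq2 size factors in edgeR. Between the tags 3 of the 6 were higher in B212 (KRT86, KRT20 and KRT78, each with at most 48 counts in a library) and KRT6A was lower. That comparison called 25.2% of all tested genes higher and 25.8% lower.

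More of the genes listed as anchoring keratin filaments were called lower with E2 than higher. These lists were chosen with earlier results of these data known. Desmosomes join the filaments of neighbouring cells, and hemidesmosomes and plakins tie them to the matrix and to one another. With the block, 3 of 11 tested desmosome genes were lower with E2 (PKP1, JUP and DSP) and none was higher, against the 3.44% of all tested genes called lower. Of 10 tested genes of the plakin and hemidesmosome list, 4 were lower (ITGB4, PPL, PLEC and FAM83H) and none was higher. FAM83H is on that list but is neither a plakin nor a hemidesmosome protein. With no block 0 of either group were called. The median log2 fold change with the block was -0.20 in the first group and -0.24 in the second, beside -0.0081 over all tested genes.

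PKP1, a desmosomal plaque protein, had 525 (A4) and 1585 (B212) counts with DMSO and 344 and 744 with E2, a log2 fold change of -0.83 ± 0.11 (SE) with the block. JUP, or plakoglobin, had 12373 and 16921 counts with DMSO and 9742 and 10235 with E2. Its within-tag log2 differences were both -0.51. ITGB4, the hemidesmosomal integrin subunit, had 15743 and 14143 counts with DMSO and 12089 and 7723 with E2, and its log2 fold change was -0.60 ± 0.070 (SE). DSP, which links keratins to desmosomes, and PPL, or periplakin, had log2 fold changes of -0.29 and -0.44. PLEC, or plectin, and FAM83H had -0.36 and -0.29. After the correction for length and GC content, JUP, PKP1, ITGB4 and PPL were still called, and DSP, PLEC and FAM83H were not. DESeq2 with the block called the other 6 of these 7 genes and gave no adjusted p for PKP1, whose log2 fold change there was -0.83.

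Between the tags the genes of the anchoring lists did not move as 1 group. Of the 11 desmosome genes, 8 were higher in B212 and 1, PKP3, was lower, with a median log2 difference of 0.35. Of all tested genes 25.2% were called higher and 25.8% lower, with a median of 0.0042. PKP1 (1.33), DSC1 (2.12) and DSC2 (0.72) were among those higher. Of the 10 genes of the plakin and hemidesmosome list, 2 were higher (PPL and EPPK1) and 5 were lower, with a median of -0.21. ITGA6 and ITGB4, the paired integrin subunits of hemidesmosomes, were lower by 0.57 and 0.43 on the log2 scale, and DST, their plakin linker, by 0.63.

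**Figure D5:**
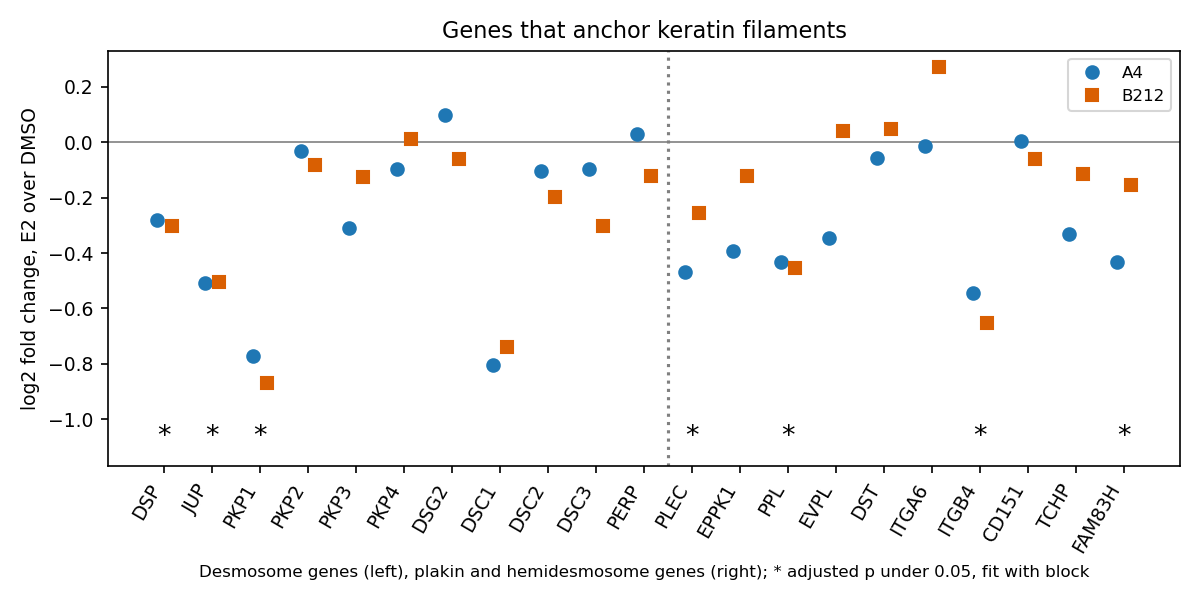
Log2 fold change for E2 over DMSO of each tested gene, within A4 (circles) and within B212 (squares). The desmosome list is left of the dotted line, and the plakin and hemidesmosome list right of it. Stars mark the genes called with the block, 3 of the desmosome list and 4 of the plakin and hemidesmosome list. In each of the 7 both tags lie below 0.

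Other intermediate filament genes and epithelial transcription factors were given by the same rule. Of 10 tested intermediate filament genes outside the keratins, 3 were lower with E2 with the block (LMNA, LMNB2 and SYNM). LMNA alone was called by DESeq2, by limma-voom and with DESeq2 size factors in edgeR, and none was called after the length and GC correction. LMNA, a nuclear lamin, had a log2 fold change of -0.32. Among 13 tested transcription factors, EHF was higher and ETS2, TP63 and KLF5 were lower, where 6.13% of all tested genes were called higher and 3.44% lower. Of these 4, ETS2 alone was called after the correction, by DESeq2 and with DESeq2 size factors in edgeR, though DESeq2 gave no adjusted p for TP63. TP63, a regulator of basal epithelial genes such as KRT5, had 103 (A4) and 255 (B212) counts with DMSO and 58 and 157 with E2. Between the tags TP63 was higher in B212 by 1.31 on the log2 scale, where KRT5 was lower. In B212, 10 of the 13 factors were called higher and 1, KLF4, lower, against 25.2% and 25.8% of all tested genes. EHF (1.49), TFAP2C (1.36), TFAP2A (1.27) and ELF3 (0.87) led the higher ones by p-value. Of 12 squamous differentiation genes, 6 were at 0 in all 4 libraries and 4 were tested. Of these 4, 0 were called with E2 and 3 were higher in B212 (CSTA, SFN and TGM1), beside the same 25.2%. CSTA had 30 to 142 counts per library and TGM1 60 to 122.

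Likeness of pattern was measured as the distance between log2 CPM profiles, centred on their means over 4 libraries, against 12488 or 12489 genes with a mean of at least 100 counts. The nearest genes were SDC4 for KRT8 (0.0188), CDC25B for KRT18 (0.0134), TRPS1 for KRT19 (0.0356) and DOCK8 for KRT80 (0.0589). They were LIPG for KRT5 (0.162), LOC80078 for KRT17 (0.209), IKZF2 for KRT23 (0.0933), ARHGEF34P for KRT7 (0.00417) and JPX for KRT13 (0.130). The nearest member was sought among far fewer genes, the other tested members, so its distance cannot be compared with these. KRT8 and KRT18 were 0.224 apart, KRT19 and KRT80 0.311, and KRT17 and KRT23 0.819. KRT8 was the member nearest to KRT18, and 1332 of 12488 genes lay nearer to KRT18 than KRT8 did. This number ran from 86 for KRT17, whose nearest member was KRT23, to 7345 for KRT5, whose nearest was KRT18. It was 223 for KRT80 and 375 for KRT19, each the other's nearest member. No such number was tested against what arbitrary genes would give. The member nearest to KRT8 was KRT7, at 0.223.

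Reads of some members could belong to near-identical copies. Of the 32-base words of its transcript, KRT18 shared 52.1% with other genes, mostly its processed pseudogenes, but 5.53% with genes of the count table. RefSeq names 68 KRT18 and 52 KRT8 pseudogenes, of which 1 each is in the table. KRT81 shared 52.8% of its words, 42.8% with KRT86 alone, and KRT17 shared 33.3%. KRT23 shared none. In GENCODE 29 the models of KRT8 and KRT18 overlap on opposite strands, as do those of KRT81 and KRT86, and of KRT80 and LINC00592. The model of KRT7 overlaps that of KRT86 on the same strand, which strand cannot resolve, and KRT86 had 15 to 48 counts per library beside 531 to 705 for KRT7. LINC00592 had 26 to 35 counts per library. The values of these members are uncertain to that extent, since the libraries were stranded, per the labels, but the counting settings for shared reads and strand are not given in the sources used here.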

How the data were processed

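The values deposited by the authors were raw read counts per gene symbol, in whole numbers whose totals differed between the 4 libraries. HISAT2, SAMtools, featureCounts, DESeq2 and build hg19 are named, per the submitters' processing notes, without settings. The table held 4 other columns of per-sample values, which were not used in any step. Columns were grouped by the treatment in their names. Genes were kept by filterByExpr of edgeR 4.0.16 (minimum count 10), which left 15599, and TMM scaling was used. The main E2 fit was the quasi-likelihood test of edgeR without a block, with Benjamini-Hochberg adjustment over all tested genes and a threshold of 0.05. The fit with the tag as a replicate block is given beside it because it changes calls.

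The libraries of a tag deviated from their group means together (Pearson r = 0.871 across 15599 genes), and the pairing rests on the tags in the column names. The biological coefficient of variation was 32.2% without and 5.99% with the block. Each SE was computed as the fold change over the square root of F. Log2 CPM had a prior count of 2, and log2 differences within a tag are on that scale.

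In counts simulated for the E2 comparison with tag differences as measured, 15474 genes passed the filter and 200 were changed by 1 on the log2 scale. The fit without the block recovered 0 of them and the fit with it 176, with 9 false calls. All genes were drawn with the same variation, near that of the fit with the block, and E2 acted alike in both tags. The change was also larger than that of any member called with the block. The simulation therefore shows that tag differences can hide changes from the fit without a block. It cannot show that the calls with the block are right. In the simulation for the tag comparison, the 200 changed genes were the only ones that differed between the tags. There 15423 genes passed the filter and 179 of the 200 were recovered, with 14 false calls. Among the measured genes 51.0% were called between the tags, so that simulation cannot show how far those calls hold.

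Alternatives used DESeq2 1.42.0, limma-voom (limma 3.58.1), other scalings, filters and thresholds, and a trend on length and GC content fitted by mgcv 1.9.3, with values for 96.8% of tested genes. Software was R 4.3.3, Python 3.11.15 and matplotlib 3.10.9. The members and gene lists were chosen with earlier results of these data known. Named genes were all members, the 2 most abundant other keratins, the nearest gene in pattern, and up to 4 called genes per list and direction by p-value; the other genes of the marker lists were named after their values were seen.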

Additional observations from a re-analysis of the deposited data

Results flagged for a closer look

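Among the 9 tested members, the E2 effect had opposite signs in the tags for KRT7 and KRT23. These differences were not tested, since each combination of tag and treatment had 1 library. For KRT7 the log2 effect was -0.0044 in A4 and 0.14 in B212, and B212 minus A4 came to 0.15. Both 95% counting intervals, -0.18 to 0.17 in A4 and -0.013 to 0.30 in B212, included 0. For KRT23 it was 0.20 in A4 and -0.038 in B212, and B212 minus A4 came to -0.24. Its counting interval was 0.041 to 0.37 in A4 and -0.12 to 0.047 in B212.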

How the results depend on the processing

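With no replicate block, 0 genes were called for E2 by edgeR under both other scalings, both filters, both stricter thresholds, limma-voom and each omission of a library, and DESeq2 called 1. At an unadjusted p under 0.05 edgeR had 150 genes. With the tag as a replicate block, 1492 genes were called (956 higher, 536 lower). With the replicate block this became 562 by DESeq2, 1138 by limma-voom, 717 with DESeq2 size factors, 533 with the length and GC trend removed, 1686 with library size only (911 higher, 775 lower) and 1770 with no filter. With the block DESeq2 gave no adjusted p for KRT7, KRT13, KRT17 and KRT23. The cause of these changes was not tested. The last pair, the trend in the tag comparison and the principal transcript length were chosen after seeing the data. The 7950 genes of the tag comparison became 1723 when a change of at least 1 on the log2 scale was also asked and 4456 without the treatment term. The KRT13 tag value, -0.039, became 0.032 with library size only and 0.020 with DESeq2. KRT7 was called between the tags with library size only and with the trend removed.

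The members' share of counts, a mean of 0.150%, was 0.0778% without KRT8 and 0.139% to 0.159% on leaving out libraries. The KRT8 share of the pair, a mean of 62.0%, was 53.2% per transcript length, 54.5% per principal transcript length and 61.2% to 62.9% on leaving out libraries.

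Leaving out a library unbalances the tags. The E2 log2 fold changes without a block then ran from -2.00 to 1.13 (KRT5), -0.10 to 0.22 (KRT7), -0.27 to 0.029 (KRT8), -2.05 to 1.56 (KRT17), -0.65 to 0.53 (KRT19), -1.09 to 1.30 (KRT23) and -0.88 to 0.20 (KRT80). Signs also turned for KRT7 (-0.016) and KRT23 (-0.66) without A4 DMSO, KRT17 (0.30) and KRT19 (0.35) without A4 E2, and KRT5 (0.43) without B212 E2. KRT18 kept its sign, from -0.33 to -0.20. The KRT13 tag value ran from -0.36 to 0.41. The tag fit without a library has no residual degrees of freedom, so no count was made. Depth limits KRT13 and KRT81, at most 17 counts each.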
